A study of Mus musculus with 6 samples.

Results

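The genes described here are the replication-dependent histone genes of mouse, followed across 6 RNA sequencing libraries of endothelial cells (ECs), the cells that line blood vessels. Members were the loci with an Ensembl transcript whose gene name starts with H2ac, H2bc, H3c or H4c, or with the older Hist1h to Hist4 stems. Of 53 matching loci, H2ac1 and H2ac19 had no count in any library, which left 51 of the 53425 named loci analysed. Libraries came from Stk11 ec-/- (KO) mice, which carry Stk11 fl/fl and Cdh5-Cre, a Cre recombinase driven by an endothelial promoter that removes exons of the gene for the kinase Lkb1, and from wild-type (WT) mice. Each group had 3 libraries of total RNA, on a C57BL/6 background and at 2 months of age by the labels. Neither the tissue of the ECs nor whether each library was a separate mouse is stated, so p-values cover only the library-to-library spread, part of which may be technical.

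Total counts were between 37114459 and 55545899 per library in KO and between 22179567 and 52795240 in WT. Stk11 itself was at 62.2, 86.7 and 83.6 CPM (counts scaled to the summed counts of the tested genes, with TMM factors, the trimmed mean of M values) in the libraries labelled KO, against 70.8, 93.9 and 77.6 CPM in those labelled WT. The whole-gene count includes exons that the deletion leaves in place and so does not check the labels. Kdm5d, a Y-linked gene, stayed at or below 0.174 CPM in every KO library, against 8.85 to 12.7 CPM in WT, so sex and genotype cannot be told apart. The 17 pan-endothelial markers found, of 18 listed, summed to 370 to 3191 CPM in KO and 416 to 1065 CPM in WT, lowest in KO replicate 3 and next lowest in WT replicate 3. None of the 17 was at 0 in every library, although Robo4 and Sox18 were at 0 in WT replicate 2, Cldn5 was at 0 in WT replicate 1, and Sox17 was at 0 in KO replicate 1 and WT replicate 1. The 18 fibroblast and mural markers found, of 21 listed, summed to more in every library, with 6035 to 13976 CPM in KO and 7099 to 21444 CPM in WT. Of these sums, Fbln2 alone gave 4832, 4321 and 2701 CPM in KO, against 3397, 6798 and 8272 CPM in WT. Without Fbln2, the fibroblast and mural sum lies below the pan-endothelial sum in KO replicates 1 and 2. Macrophage and blood cell markers summed to 8.78 to 16.3 CPM in KO and 16.9 to 39.1 CPM in WT, with Mpo and Cd3e at 0 throughout. The part of these differences in what follows was not tested. Fewer cells of a type and less RNA per cell cannot be told apart in such bulk libraries.

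Replication-dependent histone genes supply the H2A, H2B, H3 and H4 proteins that wrap newly copied DNA. They lie in clusters of short genes, mostly without introns, and are transcribed mainly in S phase. Their mRNAs typically end in a conserved stem-loop, bound by Slbp, in place of a poly(A) tail, and are broken down when DNA synthesis stops. The H2A and H2B genes often stand head to head and share the DNA between their start sites. Replacement histones such as H3f3b, by contrast, are encoded by genes scattered over the genome, with polyadenylated mRNAs made throughout the cell cycle.

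Of the 51 members, 44 lay on chromosome 13 and 7 on chromosome 3. H2A loci numbered 17, H2B loci 12, H3 loci 10 and H4 loci 8, and 4 loci joined genes of 2 classes. In all, 10 loci joined 2 or more genes, so that reads of their genes cannot be separated. The annotation of 4 loci named a pseudogene. Genes for the linker histone H1 are named H1f in the table and thus fall outside the members, except H1f4, which is joined to H2bc6.

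The 3′ stem-loop set the H4 genes apart from the other classes by sequence. It was searched in the GENCODE M21 transcripts (GRCm38) of the 58 histone genes in the member loci, and found in 37. The search took a 6-base stem, a 4-base loop and 6 bases that pair with the stem, G with T included. It fixed GG at the start, CC at the end, TT at the start of the loop and the T and A beside the loop. Forms that differ at these fixed bases could not be found, and only the other bases could vary between genes. Of the 37 genes, 21 had a transcript that ended within 100 bases of the stem-loop and 16 ran further. In other genes, the same pattern with at most 100 bases after it was found in 7 of 141586 transcripts (0.00494%). Unlike in the histone genes, the match there did not have to lie after the stop codon. Of the 21 genes with no match, the annotation of 10 stopped at the stop codon, and for these the window holds no 3′ end to search. The following are shown because they give each form found, with the loop in capitals.
H2ac7 and most H2A, H2B and H3 genes with a match (chr13:23574895-23574910, plus strand): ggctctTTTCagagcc
H2bc3 (chr13:23747203-23747218, plus strand): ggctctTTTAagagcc
H2ac20 (chr3:96220418-96220433, minus strand): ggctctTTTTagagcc
H4c8 (chr13:23531458-23531473, plus strand): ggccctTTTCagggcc
H4c9 (chr13:22040966-22040981, minus strand): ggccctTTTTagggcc
H4c2 (chr13:23757366-23757381, plus strand): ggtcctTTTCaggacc
The stem ggctct was in every H2A, H2B and H3 match, and in the H1 gene joined to H2bc6. H4 genes had ggccct in 8 and ggtcct in 2. The last loop base was an A in 2 H2B and 3 H3 genes and a T in 1 H2A and 2 H4 genes, and a C elsewhere.

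The DNA before the start sites also differed by class. RefSeq promoters (GRCm38.p6) matched 49 of 58 histone symbols in the names of the member loci. These symbols include H2ac5-ps and leave out H1f4, and so are not quite the genes searched for the stem-loop. In the 250 bases before the start, read on both strands, the letters CCAAT were found in 14 of 14 H2A, 14 of 14 H2B, 8 of 10 H3 and 3 of 11 H4 genes, against 34.4% of 26976 other promoters. TATAAA was found in 23 of the 49 (46.9%), against 12.9% of others. The octamer ATTTGCAT, which POU factors such as Oct1 bind, was found in 5 of 14 H2A, 5 of 14 H2B, 0 of 10 H3 and 0 of 11 H4 genes, against 1.58% of others. Head-to-head pairs share this window, so H2A and H2B counts are not independent. As examples, the 100 bases before the start are shown for an H2B, an H3 and an H4 gene described below, with these motifs on either strand in capitals. Starts are those of RefSeq, and most of the H3c2 stretch lies inside the deposited H3c2 locus, which starts earlier.
H2bc3 (chr13:23746634-23746733, plus strand): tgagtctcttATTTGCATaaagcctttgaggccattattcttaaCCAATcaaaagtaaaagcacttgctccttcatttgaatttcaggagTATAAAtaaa
H3c2 (chr13:23752245-23752344, plus strand): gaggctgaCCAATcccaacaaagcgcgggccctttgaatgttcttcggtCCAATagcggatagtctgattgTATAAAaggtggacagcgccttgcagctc
H4c4 (chr13:23581468-23581567, plus strand): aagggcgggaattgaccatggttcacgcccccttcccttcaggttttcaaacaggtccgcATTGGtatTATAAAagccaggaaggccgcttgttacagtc

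Levels of the histone genes spread widely between libraries of the same group. Summed over the 51 members, they reached 689, 478 and 2328 CPM in KO replicates 1, 2 and 3, against 1375, 5142 and 1477 CPM in WT replicates 1, 2 and 3. KO replicate 3 thus stood above 2 of the WT libraries, WT replicate 2 stood above all others, and the groups overlapped. The means were 1165 ± 1013 CPM in KO and 2665 ± 2146 CPM in WT (SD, n = 3 each), a log2 ratio of -1.19. No test was run on this sum, which is a score over chosen members. The members took 0.0491% to 0.193% of all counts in KO and 0.105% to 0.387% in WT.

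The individual genes followed this order closely. WT replicate 2 was the highest library for 42 of the 51 members, KO replicate 3 the second highest for 34 and KO replicate 2 the lowest for 37. Between a member's log2 CPM and the log2 sum of the other members, Pearson's r over the 6 libraries had a median of 0.92 and passed 0.8 for 38 members. Across the other tested genes, r with the members' sum had a median of -0.01 and passed 0.8 for 4.09%. These are descriptions over 6 points that share the same libraries, and many members share sequence with each other. In the median member, 55.0% of the 50-base words of the annotated transcripts also occur in transcripts of other genes, and 29 members exceed 50%, so reads may be split or shared between genes.

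**Figure D1:**
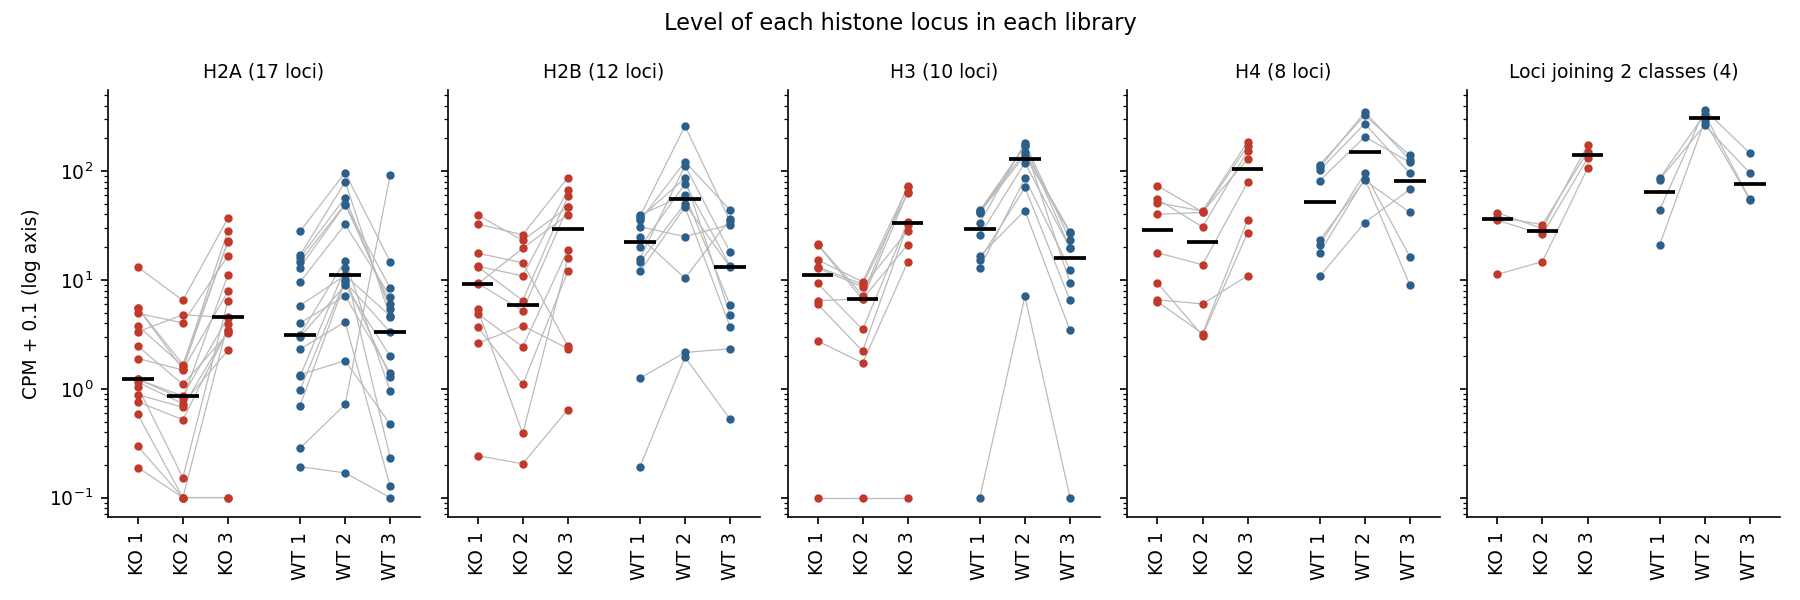
CPM of each histone locus (points, with 0.1 added, log axis) in the 3 KO libraries (red, left) and the 3 WT libraries (blue, right) of each panel, by histone class. Black bars are medians over loci and grey lines join 1 locus within a group. In each panel the medians are highest in WT replicate 2 and second highest in KO replicate 3.

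Per length, H4 genes stood highest. The deposited FPKM (fragments per kilobase of transcript, scaled to library size), averaged over 6 libraries, was highest for H4c8 (206 FPKM), followed by Hist1h4n (181 FPKM), the H3 gene H3c11 (88.5 FPKM) and H4c4 (88.2 FPKM). By class, the median tested locus had 56.6 FPKM for H4, 40.5 FPKM for H3, 12.7 FPKM for H2B and 5.61 FPKM for H2A. Joined loci can stand low in FPKM for their CPM. The locus of H2bc12 and H2bc11, which also holds assembled transcripts, had 79.8 CPM and 18.1 FPKM. H4c8, with an annotated transcript of like length (470 bases, beside 476), had 139 CPM and 206 FPKM. The part of joined loci in the class medians was not tested. The lowest member was the pseudogene H2ac5-ps, with 0.132 FPKM. In every library H4 took the largest share of the members' CPM among loci of 1 class, with 34.0% to 38.3% in KO and 28.2% to 41.8% in WT. H2A shares did not overlap, with 5.25% to 7.59% in KO and 8.65% to 10.2% in WT, but the WT replicate 3 value contains the pseudogene Hist1h2al, which was at 91.9 CPM there and at or below 0.617 CPM in the other 5 libraries. With Hist1h2al left out, they were 5.25% to 7.59% in KO and 4.28% to 8.69% in WT, and overlapped.

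Among the H4 genes, H4c8 (chromosome 13, 23531050 to 23531519) was at 40.0, 41.7 and 170 CPM in KO, against 108, 349 and 127 CPM in WT. H4c4 (chromosome 13, 23581598 to 23582735) was at 51.2, 42.9 and 186 CPM in KO, against 115, 326 and 140 CPM in WT. For both, KO replicates 1 and 2 lay below every WT library and KO replicate 3 lay above 2 of them. The locus that joins H4c11, Hist1h2bp and Hist1h4m was at 35.3, 26.2 and 131 CPM in KO, against 44.0, 366 and 147 CPM in WT. The locus of H4c6, H2bc6 and H4c3 was at 37.7, 32.2 and 151 CPM in KO, against 83.7, 265 and 96.1 CPM in WT. These 2 loci hold assembled transcripts that join distant genes, and KO replicate 3 again lay inside the WT range. Their fitted log2 fold changes were -1.53 (SE 0.86) and -1.01 (SE 0.71), beside -1.22 (SE 0.71) for H4c8 and -1.05 (SE 0.66) for H4c4, none with an adjusted p under 0.05 by edgeR's quasi-likelihood test.

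H4c9 departed from that order. It was at 6.48, 5.92 and 10.9 CPM in KO, against 10.7, 33.6 and 68.0 CPM in WT, with its highest value in WT replicate 3, the highest library for 3 of the 51 members. The groups overlapped only by KO replicate 3 and WT replicate 1, which were 10.86 and 10.71 CPM. With a log2 fold change of -2.27 (SE 0.65), H4c9 had the smallest unadjusted p of the members, 0.00942, and an adjusted p of 0.623 by edgeR. DESeq2, run as an alternative, gave it an adjusted p of 0.0444, and without WT replicate 3 its log2 fold change was -1.52 by edgeR. Of its 50-base words, 28.9% occur in transcripts of other genes.

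The H3 genes had the widest span of summed level of the 4 classes, 188 ± 188 CPM in KO and 520 ± 540 CPM in WT (SD, n = 3 each), a 20.9-fold span from KO replicate 2 to WT replicate 2. H3c2 (chromosome 13, 23752267 to 23752886) was at 21.03, 6.55 and 64.0 CPM in KO, against 41.0, 173 and 19.5 CPM in WT. The locus of H2bc8 and H3c4 was at 11.2, 14.7 and 107 CPM in KO, against 85.8, 333 and 55.6 CPM in WT. WT replicate 3 was the lowest WT library in both cases and lay below KO replicate 3. In the locus that joins H2ac18, Gm20634 and H3c14, the values were 41.4, 29.5 and 173 CPM in KO, against 20.95, 289 and 54.5 CPM in WT, so that WT replicate 1 was the lowest of all 6. Fitted log2 fold changes ran from -2.25 to -1.03 over the 9 tested H3 loci, all below 0, and those of H3c2 and of the joined H2ac18 locus (-1.35 and -0.58) were 0.019 and 1.11 without WT replicate 2. H3c13 had counts in WT replicate 2 only, at 6.997 CPM, and every 50-base word of it occurs in other transcripts.

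Of the H2A genes, H2ac20 (chromosome 3, 96220361 to 96220880) was at 13.0, 6.39 and 36.9 CPM in KO, against 27.9, 96.7 and 14.6 CPM in WT. H2ac15 (chromosome 13, 21753435 to 21753827) was at 5.43, 1.42 and 22.8 CPM in KO, against 16.8, 79.7 and 4.46 CPM in WT. Both overlapped between groups, with log2 fold changes of -1.31 (SE 0.85) and -1.77 (SE 1.21). H2ac7 (chromosome 13, 23574381 to 23574952) was at 1.798, 1.39 and 7.75 CPM in KO, against 12.9, 49.1 and 8.34 CPM in WT. It was 1 of 3 members, with Hist1h2br and the untested Hist1h2al, whose KO libraries all lay below their WT libraries. The same held for 6.58% of all tested genes. The log2 fold change of H2ac7 was -2.69 (edgeR, SE 0.92, unadjusted p = 0.0212, adjusted p = 0.662), and -1.54 without WT replicate 2. H2ac14, an unprocessed pseudogene by the annotation, was at 0.481, 0 and 3.87 CPM in KO, against 1.25, 1.72 and 0.372 CPM in WT. Hist1h2an was at 0.944, 0.0524 and 6.36 CPM in KO, against 2.22, 4.01 and 0.0266 CPM in WT. Both rest on few counts, and their fitted log2 fold changes of 0.39 (SE 1.53) and 0.24 (SE 1.65) were below 0 without KO replicate 3.

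H2bc3 (chromosome 13, 23746734 to 23747241) had the most negative log2 fold change of the members, -2.95 (edgeR, SE 1.17, unadjusted p = 0.0378, adjusted p = 0.668). It was at 3.596, 0.996 and 11.9 CPM in KO, against 37.0, 86.4 and 4.68 CPM in WT. Here WT replicate 3 lay below KO replicate 3, so the groups overlapped. H2bc21 (chromosome 3, 96221119 to 96223738) ran the other way, at 2.53, 3.70 and 2.24 CPM in KO, against 1.15, 2.06 and 2.23 CPM in WT. It was the only member whose KO libraries all lay above its WT libraries, narrowly, at 2.241 CPM in KO replicate 3 and 2.232 CPM in WT replicate 3, with a log2 fold change of 0.63 (edgeR, SE 0.52, adjusted p = 0.811). Of all tested genes, 7.69% had all KO libraries above all WT libraries.

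The comparison of KO with WT across all genes called none of the histone genes. Of the 51 members, 48 passed the filter on low counts, and H3c13, Hist1h2al and H2ac5-ps did not. At an adjusted p under 0.05 by edgeR's quasi-likelihood test, 0 of the 48 passed, against 13 of 17379 tested genes (0.0748%). At an unadjusted p under 0.05, 3 members (H2bc3, H2ac7 and H4c9) were lower and 0 were higher, against 2.99% of all tested genes lower and 4.36% higher. Adjusted p-values of the members ran from 0.623 to 0.995. DESeq2 called 1 member, H4c9, and 1.21% of all tested genes, and limma on log2(FPKM + 1) called 0 members. At an unadjusted p under 0.05, 9 of 48 members were lower by DESeq2, against 4.03% of all tested genes. By edgeR, 10 of 51 were lower with no filter on low counts, against 2.46%, and 1 of 48 was lower with the replicate number as a block, against 2.64%.

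Fitted values of the members were mostly below 0 without passing the test. Their median log2 fold change was -1.24, against 0.02 over all tested genes, and 45 of the 48 were below 0, against 48.5% of all tested genes. Since the members vary together across libraries, these 45 values are not 45 separate observations. The median SE was 0.94 for the members and 0.53 over all tested genes. By class, the median log2 fold change was -1.48 for H3, -1.27 for H2A, -1.13 for H4 and -1.04 for H2B. Of the tested members, H2ac7 and Hist1h2br had all KO libraries below all WT libraries and H2bc21 had them above, against 6.58% and 7.69% of all tested genes. The 4 linker histone genes H1f1, H1f2, H1f3 and H1f5, looked at after the data were seen, had a median of -1.27 and summed to 106, 69.8 and 215 CPM in KO, against 173, 489 and 118 CPM in WT.

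**Figure D2:**
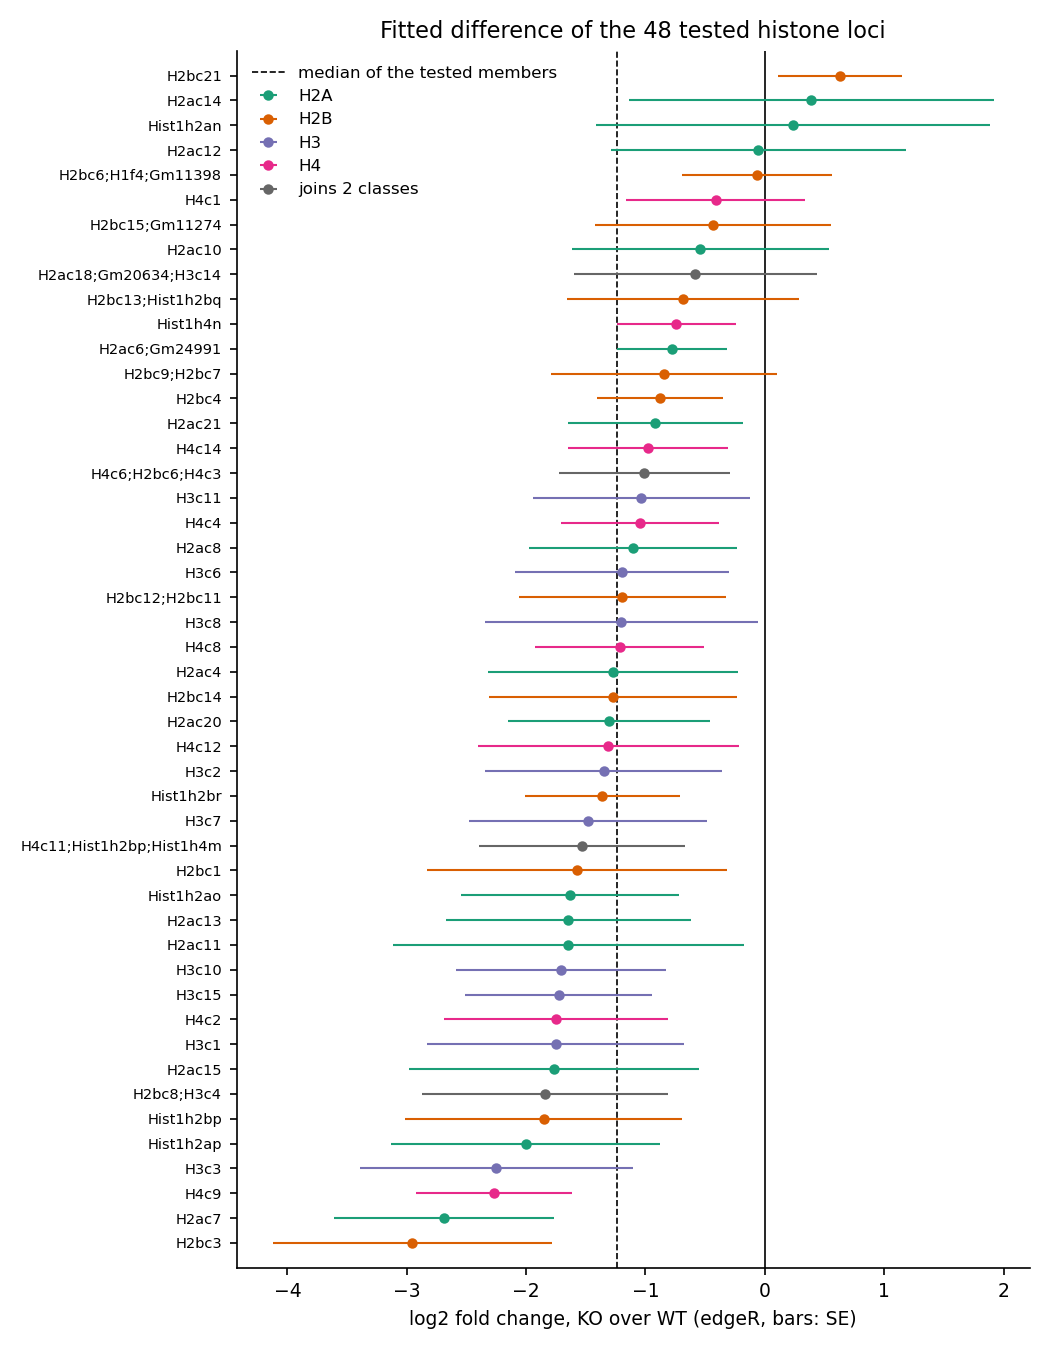
Fitted log2 fold change of KO over WT (edgeR) for the 48 tested histone loci, sorted, with the SE as bars and the histone class as colour. The dashed line is their median, -1.24. H2bc21, H2ac14 and Hist1h2an are the 3 loci above 0.

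Single libraries set the size of this median. Without WT replicate 2 it was -0.14, with 29 members below 0 and 19 above. In that fit 1 of 48 members tested was lower at an unadjusted p under 0.05, against 1.83% of all genes tested. Members lower at that threshold numbered 2 of 49 without KO replicate 1 and 2 of 49 without KO replicate 2, against 2.75% and 2.11% of all genes tested. They numbered 5 of 49 without WT replicate 1 and 8 of 48 without WT replicate 3, against 2.67% and 3.22%. Without KO replicate 3 the median was -2.36, and 32 of 49 members tested were lower at an unadjusted p under 0.05, against 4.51% of all genes tested in that fit. There 0 members had an adjusted p under 0.05, with a smallest adjusted p of 0.372 by edgeR. Without KO replicate 3 and WT replicate 3, the libraries with the lowest endothelial and the highest fibroblast and mural marker sums, it was -2.68. In that fit, chosen after seeing the data, 36 of 47 members tested were lower at an unadjusted p under 0.05, against 5.50% of all genes tested. Again 0 members passed the adjusted threshold, with a smallest adjusted p of 0.206 by edgeR.

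**Figure D3:**
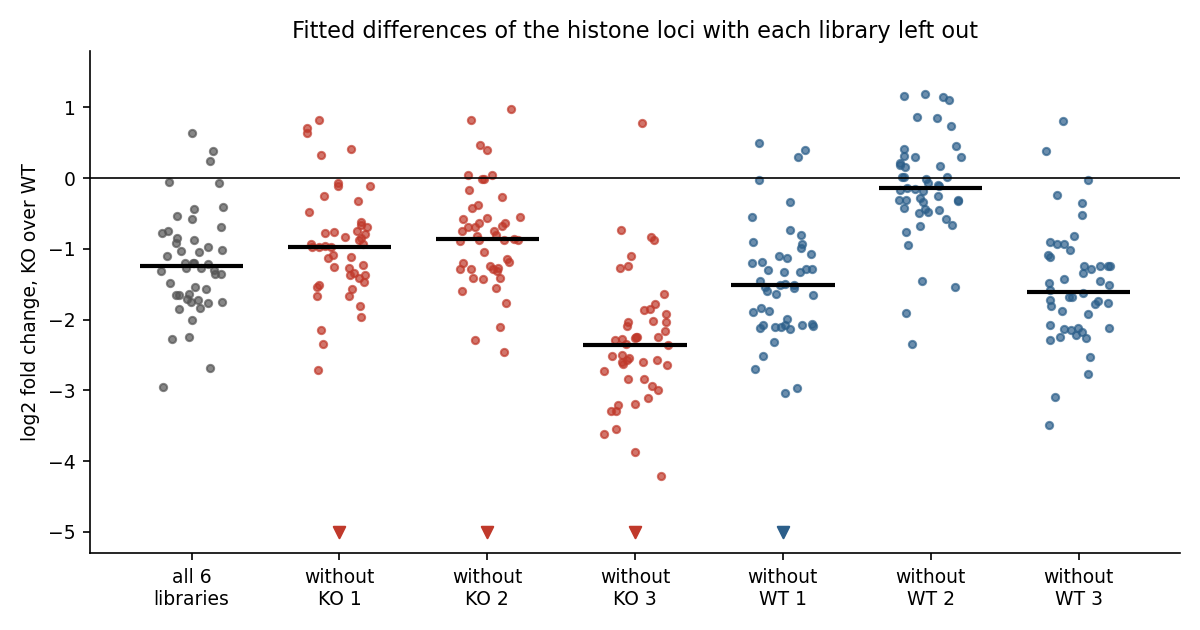
Fitted log2 fold changes of KO over WT for the tested histone loci (points) with all 6 libraries and with each library left out in turn, with the median as a black bar. Triangles at the lower edge stand for Hist1h2al, whose fit lay below the axis. The median runs from -2.36 without KO replicate 3 to -0.14 without WT replicate 2.

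Genes of DNA replication did not show the same order of libraries. The 38 genes found of the 40 listed, among them Pcna, the sliding clamp, summed to 1376, 667 and 1356 CPM in KO, against 958, 1569 and 501 CPM in WT. Pcna was at 83.0, 31.7 and 62.4 CPM in KO, against 37.0, 62.7 and 34.99 CPM in WT. By their sum, KO replicate 1 was the second highest library and WT replicate 3 the lowest, while Pcna was highest in KO replicate 1 and lowest in KO replicate 2. Of the 38, 32 had a log2 fold change above 0 and 6 below (median 0.26), and 0 passed an unadjusted p of 0.05 in either direction. Pola1, the catalytic subunit of DNA polymerase alpha, was at 1.51 (SE 0.68) on the same scale, with an adjusted p of 0.682 by edgeR. Mitosis genes ran alike, at 479, 122 and 440 CPM in KO, against 369, 548 and 111 CPM in WT, with Mki67, a marker of cycling cells, at 19.3, 3.67 and 17.6 CPM in KO, against 7.15, 19.5 and 2.58 CPM in WT. Of 25 tested mitosis genes, 13 were above 0 and 12 below (median 0.13), and 0 passed an unadjusted p of 0.05.

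Set against the replication genes, the histone level ordered the libraries differently. The ratio of the 2 sums was 0.501, 0.716 and 1.72 in KO replicates 1, 2 and 3, against 1.44, 3.28 and 2.95 in WT replicates 1, 2 and 3. WT replicate 1 lay below KO replicate 3, so the groups overlapped. This ratio was formed after the sums were seen and has no test.

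RNAs that normally carry no poly(A) tail, such as Rmrp, Rn7sk and the spliceosomal U1 genes, had nearly the order of that ratio. The 23 genes found of the 34 listed summed to 3609, 7301 and 14978 CPM in KO, against 8558, 23398 and 25747 CPM in WT, with 3 of them (Rnu11, Rprl1 and Rprl2) at 0 in every library. Both measures ran from KO replicate 1 over KO replicate 2, WT replicate 1 and KO replicate 3 to WT replicates 2 and 3, which alone changed places. This likeness was seen after the data were. The members' own sum had another order, at 1477 CPM in WT replicate 3, below WT replicate 2 and KO replicate 3. Divided by the sum of these RNAs, it was 0.191, 0.0654 and 0.155 in KO, against 0.161, 0.220 and 0.0574 in WT. The groups thus overlapped in the level of the members relative to these RNAs. Of the 17 of these RNAs tested, all 17 had a log2 fold change below 0 (median -1.35), against 48.5% of all tested genes. At an unadjusted p under 0.05, 6 were lower, against 2.99% of all tested genes. Only 1, Rprl3, passed the adjusted threshold, against 0.0748% of all tested genes. Rprl3 was near 0 in KO, at 0.107, 0.236 and 0.218 CPM, against 265, 558 and 716 CPM in WT, a far larger difference than that of the others. Rnu3a, a U3 gene of ribosomal RNA processing, had a log2 fold change of -2.14 (edgeR, SE 0.61, adjusted p = 0.623), and the U1 genes Rnu1b1 and Rnu1b2, which share sequence, had -1.36 (SE 0.43) and -1.35 (SE 0.44). The part that recovery of RNA without a poly(A) tail has in the histone values was not tested. With these RNAs left out of the table before scaling, the median of the histone genes was -1.24. That setting leaves the histone counts as they are and alters little but the scaling, so it cannot bear on that recovery.

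**Figure D4:**
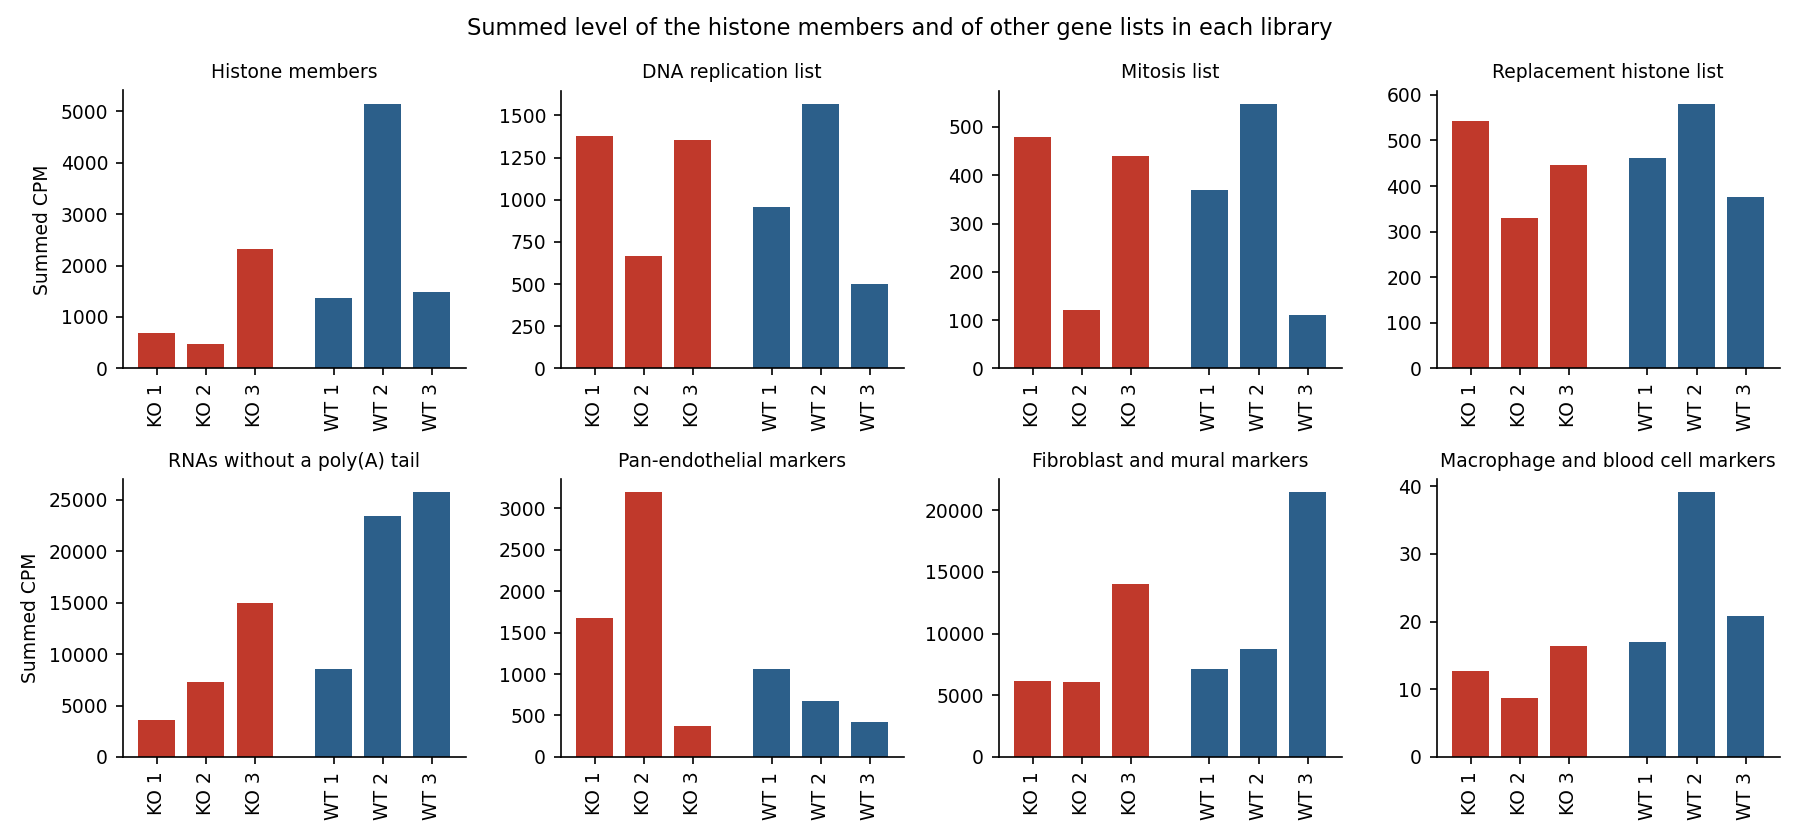
Summed CPM (bars, each axis from 0) of the histone members and of 7 other gene lists in the 3 KO libraries (red, left) and 3 WT libraries (blue, right). The histone sum is highest in WT replicate 2 (5142 CPM), the replication and mitosis sums are low in KO replicate 2 and WT replicate 3, and the RNAs without a poly(A) tail are lowest in KO replicate 1 (3609 CPM).

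The sum of the replacement histones varied less than that of the members. The 11 genes found of 20 listed summed to 542, 330 and 447 CPM in KO, against 461, 581 and 376 CPM in WT, a 1.76-fold span, beside 10.8-fold for the members. H3f3b, which encodes H3.3, was at 113, 85.6 and 107 CPM in KO, against 131, 143 and 100 CPM in WT, and H2az1, which encodes H2A.Z, at 82.9, 19.1 and 45.8 CPM in KO, against 49.2, 59.1 and 39.9 CPM in WT. H2ax, whose protein is phosphorylated at DNA breaks, was at 24.3, 12.2 and 62.1 CPM in KO, against 44.4, 115 and 31.6 CPM in WT, nearly in the library order of the members. Cenpa, the centromeric H3, also varied widely, at 11.9, 2.91 and 15.04 CPM in KO, against 6.32, 15.3 and 2.05 CPM in WT. None of the 11 passed an unadjusted p of 0.05, and their median log2 fold change was 0.14. H2aj and H2ax had the most negative values, -0.67 (SE 0.32) and -0.95 (SE 0.69).

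The sum of the factors that make and process histone mRNA had a 1.34-fold span, although single factors varied more. Slbp, the stem-loop binding protein, was at 5.61, 4.09 and 4.48 CPM in KO, against 6.09, 5.28 and 3.03 CPM in WT, with a log2 fold change of -0.02 (SE 0.43). Npat, which activates histone gene transcription downstream of cyclin E and Cdk2, was at 15.5, 17.0 and 10.8 CPM in KO, against 9.92, 9.43 and 8.53 CPM in WT, with 0.63 (SE 0.32, adjusted p = 0.696 by edgeR). The 23 genes found of 27 listed summed to 767, 787 and 674 CPM in KO, against 718, 853 and 905 CPM in WT. Of them, 13 were above 0 and 10 below, and only Ccne2, a cyclin E, had an unadjusted p under 0.05, with 2.49 (SE 0.82, adjusted p = 0.644 by edgeR). Lsm10, of the U7 particle that cuts histone pre-mRNA, was at 14.4, 11.98 and 14.0 CPM in KO, against 17.7, 21.1 and 0.0531 CPM in WT, and so was near 0 in WT replicate 3 only. Ncbp2, of the cap-binding complex, was at 21.8, 21.25 and 12.2 CPM in KO, against 1.29, 17.2 and 16.7 CPM in WT. Both were picked for their spread after it was seen, as was Cenpa. Lsm11, also of the U7 particle, had -0.85 (SE 0.39), and Upf1, a helicase used in histone mRNA decay, had -0.59 (SE 0.32). The 16 histone chaperone genes found of 19 listed had a median of 0.22 with none at an unadjusted p under 0.05, and Atrx, a remodeller that deposits H3.3, had the smallest p, with 0.76 (SE 0.38).

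By their median, histone loci with long annotated transcripts spanned less, although the ranges overlapped. The ratio of the highest to the lowest of the 6 libraries could be formed for 47 of the 48 tested members and ran from 3.20 to 239, with a median of 15.1, against 2.93 over all tested genes. Loci whose longest transcript exceeds 1000 bases, 13 in number, had a median span of 10.4, against 19.9 for the 34 shorter ones that have a span. Spans ran from 3.20 to 29.8 in the longer loci and from 4.91 to 239 in the shorter ones. The locus of H2bc8 and H3c4 (1249 bases) had 29.8, H3c7 (1261 bases) 20.2 and Hist1h2br (2197 bases) 13.6. The H2B gene H2bc21, whose annotated transcript of 2620 bases holds no match to the stem-loop and ends near the letters AATAAA, had the lowest span, 3.20. Next came H2ac6 (3.37), whose transcript runs 2010 bases past its stem-loop, the joined H2bc6 and H1f4 locus (4.38), with 1861 bases past it, the H4 gene Hist1h4n (4.91), whose transcript of 430 bases ends at its stem-loop, and H2bc4 (5.30), with no match. These loci were singled out after their spans were seen. H2ac6 was at 3.24, 4.69 and 4.42 CPM in KO, against 5.72, 10.9 and 4.57 CPM in WT. H2bc4 was at 39.4, 23.0 and 46.6 CPM in KO, against 35.1, 122 and 43.7 CPM in WT. Both were highest in WT replicate 2, and both overlapped between the groups. The widest spans rest on few counts in the lowest library. Hist1h2an (239) had 1 count in WT replicate 3, the single-gene Hist1h2bp locus (174) 11 in KO replicate 2 and H2ac11 (95.5) 5 in WT replicate 3. No test was run on the spans.

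**Figure D5:**
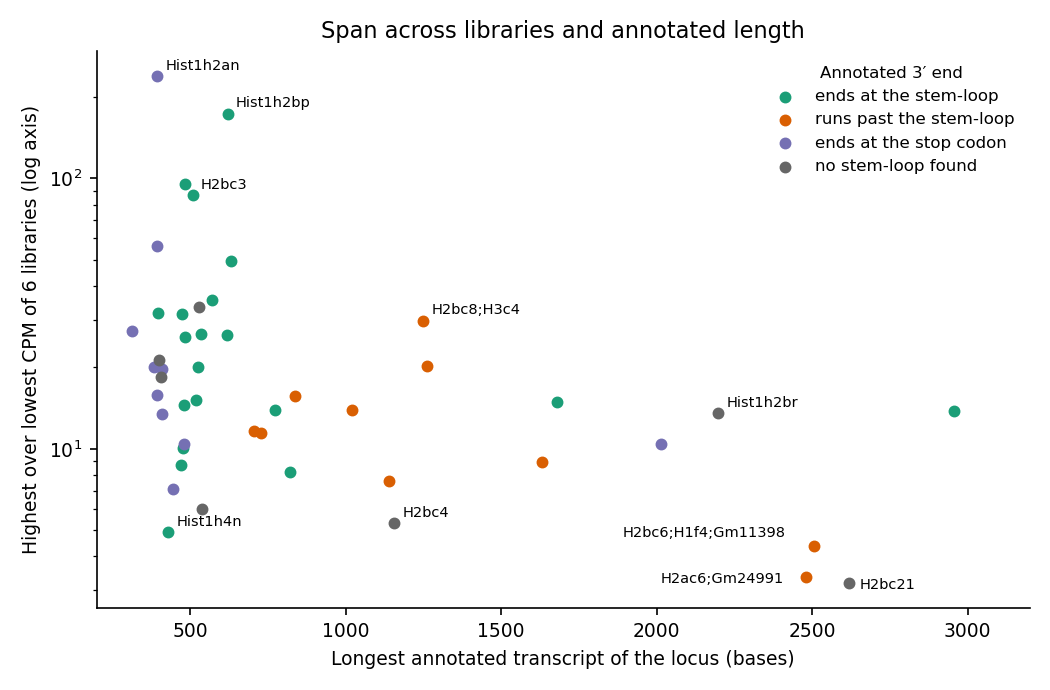
Ratio of the highest to the lowest CPM of the 6 libraries (log axis) against the longest annotated transcript of each tested histone locus, coloured by how its annotation ends. H2bc21 and H2ac6, at 3.20 and 3.37, lie at the lower right, and Hist1h2an, at 239, at the upper left.

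Few histone loci went against the common order. With the other members, 5 had r under 0.5: H2bc21 (-0.46), Hist1h2br (-0.08), the joined H2bc6 and H1f4 locus (0.03), and H2ac5-ps (-0.06) and Hist1h2al (0.18), which did not pass the filter on low counts. Hist1h2br was at 17.5, 14.3 and 2.37 CPM in KO, against 30.8, 24.9 and 32.2 CPM in WT, so KO replicate 3, high for most members, was its lowest library. Its log2 fold change was -1.36 (edgeR, SE 0.65, adjusted p = 0.682), and 88.7% of its 50-base words occur in other transcripts. The joined H2bc6 and H1f4 locus was at 9.08, 19.5 and 39.7 CPM in KO, against 24.7, 10.3 and 36.4 CPM in WT.

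Outside the members, the genes most like the histone sum over the 6 libraries by Pearson's r of log2 CPM with 0.5 added were Hnrnpl and Fbxw9 (0.997 each), the joined Rnf225 and Gm26325 locus (0.993), Man2c1 (0.992) and Scrib (0.991). Among the 17331 genes compared, 201 (1.16%) exceeded 0.9, with H2ax at rank 17 and H1f3 at rank 20. Hnrnpl, an RNA-binding protein, spanned little, at 219, 201 and 272 CPM in KO, against 244, 316 and 257 CPM in WT. Fbxw9, which encodes an F-box protein, was at 25.3, 19.7 and 44.7 CPM in KO, against 33.6, 66.1 and 33.4 CPM in WT. The correlation is a description over 6 points that share library depth and scaling.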

How the data were processed

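Total RNA of ECs was sequenced in 3 KO and 3 WT libraries. The methods name HISAT2, GRCm38 and StringTie, and the processing notes of the submitters list TopHat, Cufflinks, BWA and mm9. The authors deposited a whole-number count per locus and library, with no scaling. They also deposited FPKM, in which the authors took account of length and of library size.

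Of 91725 loci, those with an Ensembl transcript were kept, 1 per symbol. The other 38195 took 5.15% to 13.8% of each library's counts. Counts were tested with edgeR 4.0.16 in R 4.3.3 (TMM, default filter, quasi-likelihood test, genotype as the 1 factor, Benjamini-Hochberg adjustment over 17379 genes). CPM were scaled to the counts of the tested genes (20307997 to 49441235 per library, below the total counts that give the depth) times the TMM factor. Alternatives were median-ratio size factors, no TMM factor, no filter, DESeq2 1.42.0, a replicate block, each library left out, rows of 1 symbol summed, and limma 3.58.1 on log2 FPKM with 1 or 0.1 added. Added after seeing the data were the members without joined loci and pseudogenes, the table without RNAs lacking a poly(A) tail, and the fit without KO replicate 3 and WT replicate 3. Fits were tested on simulated data. Tables and plots used pandas 2.3.3, matplotlib 3.10.9 and numpy 2.4.6 in Python 3.11.15.

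The members and gene lists were chosen with earlier results of these data known. Named members were the 3 with the highest mean CPM of each class, those at an unadjusted p under 0.05, and the 3 largest differences in each direction. Of other lists, up to 4 genes with the smallest p were named, with Slbp, Npat, Mki67, Pcna, H3f3b and H2az1, and the 5 genes most like the summed level. A gene that this rule names is not reported here.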

Additional observations from a re-analysis of the deposited data

Results flagged for a closer look

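Loci made of assembled transcripts only, which the comparison left out, held 3223 counts under histone names, beside 399248 in the members. The largest of the 10 loci, named Hist1h4m (chromosome 13, 21812144 to 21819924), held 1766 of these counts. It had 854, 50 and 411 counts in KO, against 195, 146 and 110 counts in WT. Of the 10 loci, 4 others had a mean level in KO above the highest WT library. The share of such cases among other assembled loci is not given here. The locus named Hist1h2bp (chromosome 13, 21750258 to 21832179, which spans several histone genes) averaged 8.58 CPM in KO, with 27, 948 and 19 counts in the 3 KO libraries, against 10, 85 and 4 counts in the 3 WT libraries, most of them in KO replicate 2. A locus named H4c8 (chromosome 13, 23532073 to 23532540) averaged 0.393 CPM in KO, with 42, 4 and 15 counts in KO, against 5, 4 and 4 counts in WT. Loci named H3c2 and H2bc21 averaged 0.187 and 0.140 CPM in KO, with at most 18 counts in any library. Others ran the opposite way. A locus named H2bc9 had 0 counts in every KO library, against 15, 4 and 21 counts in WT. Another, named H2bc13, had 27 counts, all in WT replicate 3.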

How the results depend on the processing

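Each group had 3 libraries, and leaving out any 1 moved the summed histone level and the median log2 fold change further than either other scaling of the counts did. Across all genes tested, 13 were called by edgeR at an adjusted p under 0.05, against 36 with no filter on low counts, 210 by DESeq2, 23 by limma with 0.1 added to FPKM, and 0 to 4 with libraries left out. Histone genes called stayed at 0 in each of these settings but DESeq2, where 1 was called. The 3 of 48 histone genes lower at an unadjusted p under 0.05 became 10 of 51 with no filter and 9 of 48 by DESeq2. With libraries left out they ran from 1 of 48 to 36 of 47. Of all genes tested in those fits, 2.46%, 4.03% and 1.83% to 5.50% were lower. The log2 ratio of summed levels (-1.19) ran from -2.48 to -0.29, and the median log2 fold change (-1.24) from -2.68 to -0.14, with libraries left out. The lowest values are those without KO replicate 3 and WT replicate 3, which was tried once the data had been seen, and the highest those without WT replicate 2. Both kept their sign under the other settings run. For the summed level, DESeq2 and limma with 0.1 added give no value of their own.

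The study's methods call its comparison paired without saying what was paired. Deviations of same-numbered libraries from the group means had correlations across genes of 0.27, -0.24 and 0.04, so the numbers were not taken to pair the libraries. Whether they share a batch or day is not stated. With the replicate block, 1 gene was called, 0 of them a histone gene, and 1 histone gene was lower at an unadjusted p under 0.05, against 2.64% of all genes tested.

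The sign of the fitted log2 fold change turned for 4 named members, none past the threshold, and the cause was not tested. H2ac14 (0.39) was at -1.29 with the replicate block, at -0.16 and -0.92 by limma with 1 and 0.1 added, and at -2.57 to 0.98 with libraries left out. Hist1h2an (0.24) was at -0.98 with the block, at -0.029 by limma with 1 added, and at -2.62 to 1.15 with libraries left out. The H2ac18, Gm20634 and H3c14 locus (-0.58) was at 0.046 with the block, at 0.048 and 0.071 by limma with 1 and 0.1 added, and at -2.13 to 1.11 with libraries left out. H3c2 (-1.35) was at -2.95 to 0.019 with libraries left out. Of 240 values of 15 named members under alternatives, 223 kept direction and side of the threshold and 1, H4c9 by DESeq2, passed it.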
